A study of Mus musculus with 4 samples.

Results

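The genes described are 30 genes of cholesterol synthesis, intracellular cholesterol transport and sterol regulation, taken by name from the 50766 genes of the deposited table. They were followed in cells with biliary markers and in cells with mesenchymal markers, separately for each treatment label. By role they comprise 18 synthesis enzymes, 5 genes of the SREBP system that senses sterols, 3 carriers of cholesterol inside the cell, and 4 genes for the liver X receptors (LXR) and the efflux pumps they control. All 30 had counts in biliary epithelial cell (BEC)-like cells in every library.

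The samples were liver cells of Sox9EGFP mice, a genotype that marks cells in which the biliary gene Sox9 is active with a green fluorescent protein. There were 4 libraries: 2 were taken 7 days after sham surgery and 2 were taken 7 days after bile duct ligation (BDL), which ties off the duct and causes bile to back up into the liver. The labels call the sampled cells biliary epithelial cells. All 4 libraries share the genotype, and the comparison asks how gene activity differs after ligation.

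Cells make cholesterol from acetyl-CoA through the mevalonate pathway and a long series of sterol-modifying steps. When membranes of the endoplasmic reticulum run low in sterol, the escort protein Scap carries SREBP transcription factors to the Golgi, where proteases release the part that enters the nucleus and switches on the synthesis enzymes. With ample sterol, the Insig proteins hold Scap back, while LXR, activated by oxidised sterols, switches on export of cholesterol. In the liver, cholesterol is also the precursor of bile acids, to which the lining of the bile ducts is exposed.

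The promoter windows of members called lower in BEC-like cells are shown for the motifs they hold. RefSeq promoter windows (build GRCm38.p6, 250 bases before to 50 after a start) were matched by symbol for 24 of the 30 genes, among them 6 of the 8 genes called below. The windows of the 5 matched genes that were lower after ligation are given 5′ to 3′ on the gene's strand. Capitals mark the sterol regulatory element, searched as TCACNCCAC, and the CCAAT box, searched as CCAAT, on both strands (the CCAAT box reads ATTGG on the other strand). These marked motifs do not overlap in the windows.
Hmgcs1 (chr13:119690101-119690400, plus strand): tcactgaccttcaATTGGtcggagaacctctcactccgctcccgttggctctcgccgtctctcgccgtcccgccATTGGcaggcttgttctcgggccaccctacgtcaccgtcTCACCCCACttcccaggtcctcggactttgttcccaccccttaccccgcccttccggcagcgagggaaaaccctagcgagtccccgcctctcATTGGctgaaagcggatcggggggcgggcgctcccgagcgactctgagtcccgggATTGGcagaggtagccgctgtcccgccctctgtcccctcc
Idi1 (chr13:8885356-8885655, plus strand): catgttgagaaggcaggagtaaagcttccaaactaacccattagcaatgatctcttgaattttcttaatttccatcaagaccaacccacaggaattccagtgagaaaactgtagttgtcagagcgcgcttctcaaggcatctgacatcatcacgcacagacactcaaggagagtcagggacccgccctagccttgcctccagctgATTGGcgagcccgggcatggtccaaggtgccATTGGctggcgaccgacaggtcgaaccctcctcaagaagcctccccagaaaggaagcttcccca
Tm7sf2 (chr19:6067801-6068100, minus strand): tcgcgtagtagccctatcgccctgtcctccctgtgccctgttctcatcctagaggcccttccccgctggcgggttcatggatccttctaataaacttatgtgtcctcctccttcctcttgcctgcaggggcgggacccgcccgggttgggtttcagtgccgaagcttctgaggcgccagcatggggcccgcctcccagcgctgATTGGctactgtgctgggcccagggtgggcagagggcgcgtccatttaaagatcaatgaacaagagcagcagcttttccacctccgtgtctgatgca
Ebp (chrX:8193463-8193762, minus strand): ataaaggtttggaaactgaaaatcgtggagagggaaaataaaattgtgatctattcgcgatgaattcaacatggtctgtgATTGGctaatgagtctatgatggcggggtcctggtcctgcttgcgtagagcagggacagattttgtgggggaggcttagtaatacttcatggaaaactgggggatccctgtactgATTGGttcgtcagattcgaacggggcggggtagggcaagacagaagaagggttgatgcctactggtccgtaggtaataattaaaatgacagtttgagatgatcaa
Insig1 (chr5:28071162-28071461, plus strand): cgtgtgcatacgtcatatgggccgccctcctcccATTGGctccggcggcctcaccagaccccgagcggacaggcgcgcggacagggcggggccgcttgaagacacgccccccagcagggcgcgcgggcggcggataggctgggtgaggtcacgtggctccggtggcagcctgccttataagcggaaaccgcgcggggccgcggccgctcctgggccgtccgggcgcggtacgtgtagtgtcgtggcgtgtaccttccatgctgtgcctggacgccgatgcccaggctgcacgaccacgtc

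Only the Hmgcs1 window held the searched sterol regulatory element, 1 of 24 matched genes, against 1.44% of the 27025 genes with a window. The CCAAT box, which binds the factor NF-Y, a partner of SREBP at many sterol genes, stood in the windows of 19 of 24 genes (79.2%), against 41.1% of all genes. The E-box CACGTG, searched on both strands, was found in 6 of 24 (25%) against 8.09%, among them Insig1 and Scap. The perfect DR4 element, the repeat to which LXR binds, was found on either strand in 0 of 24 and in 0.0148% of all genes. Only the perfect repeat was searched, and 4 of the 27025 genes held it. With so few genes holding it, the 0 of 24 cannot show whether a member's window holds an imperfect repeat. A gene with several windows counted as holding a motif if any of them did. These matches are a description of the letters in the windows.

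The libraries held 2089 to 4065 cells and 10024577 to 33809650 UMIs (unique molecular identifiers, each standing for 1 captured transcript). The libraries labelled BDL were deeper, with medians of 7058 and 7793 UMIs per cell against 3260 and 2610 in the libraries labelled sham. Their median mitochondrial share was 5.38% and 6.35%, against 4.17% and 5.10%. In the per-cell annotation, a treatment name is also given, and it contradicts the sample label for sham replicate 2 (named BDL there) and for BDL replicate 2 (named sham there). Groups follow the labels throughout, and the main counts and the named genes are also given without these libraries. The largest BEC-like cluster held 1040 and 817 cells of the sham libraries and 4 and 3 cells of the BDL libraries. The next largest held 7 and 1 against 511 and 1089. In these clusters, libraries with the same sample label fell together, while the names themselves were not tested. No cell barcode was shared between libraries (0). Cells with biliary markers made up 81.4% to 94.3% of the cells of a library. BEC-like cells numbered 2610 and 2587 in sham libraries and 1963 and 3799 in BDL libraries, and mesenchymal-like cells 188, 419, 71 and 132 in the same order. All 11 biliary markers, Krt19, Epcam and Sox9 among them, had UMIs in BEC-like cells of each library, and all 14 mesenchymal markers in mesenchymal-like cells. But 13 or 14 of the 14 mesenchymal markers also had UMIs in BEC-like cells, and 10 of the 11 biliary markers in mesenchymal-like cells. Such presence does not tell the classes apart, and the classes were named by these same markers.

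In BEC-like cells the synthesis enzymes stood lower after ligation: 5 of 18 fell, none rose, and the median log2 fold change of the 18 was -0.64, against -0.03 for all genes tested. Of all 30 genes, 7 fell (Hmgcs1, Idi1, Sqle, Tm7sf2, Ebp, Insig1 and Stard4) and 1 rose (Scap). A gene counts as called with an adjusted p under 0.05 in edgeR's quasi-likelihood test of counts summed per library, with Benjamini-Hochberg adjustment over all 16034 genes tested. The 8 calls are 26.7% of the genes described, close to the 27.1% of all tested genes that were called. By direction, 23.3% of the 30 fell, against 12.9% of all genes, and 3.33% rose, against 14.2%. Each p rests on the spread between 2 libraries per group, which edgeR estimates for a gene by borrowing from the other genes tested. The labels name each library separately but do not state that each is a separate mouse, so this spread may be technical.

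The ratio of the 2 groups depended strongly on sham replicate 2, whose label and cell-table name disagree. It exceeded sham replicate 1 for 17 of 18 enzymes, with a median log2 ratio of 0.55, whereas over all genes it was the higher sham library for 50.4%. With sham replicate 2 left out, 2 of the 30 genes were called, Idi1 lower and Mvd higher, against 9.92% of all genes tested in that fit. With sham replicate 1 left out, 6 were called, all lower, against 7.56% of all genes. With BDL replicate 1 left out 16 were called, 5 higher and 11 lower, against 39.2% of all genes, and with BDL replicate 2 left out also 16, 2 higher and 14 lower, against 25.4%. The median log2 fold change of the 18 enzymes was -0.26 with sham replicate 2 left out and -0.80 with sham replicate 1 left out.

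Markers of other cell types also moved with the groups within BEC-like cells. The summed level of 11 hepatocyte markers was 1371 and 1366 CPM (UMIs scaled to a common library total) in sham libraries and 193 and 182 CPM in BDL libraries, with Cyp2e1 at 0 in both sham libraries. The 14 mesenchymal markers summed to 354 and 248 CPM against 1224 and 1497 CPM, with Thy1 at 0 in sham replicate 2 and in BDL replicate 1. The 6 mesothelial markers summed to 334 and 278 CPM against 94.0 and 102 CPM, with Upk1b at 0 in BDL replicate 1. Of the hepatocyte markers, Alb was among the 10 leading genes of 1 BEC-like cluster, held almost wholly by the sham libraries (528 and 750 cells against 5 and 1). It was seen in 84.2% to 88.4% of the cells of that cluster and of 2 other sham clusters. Msln, a mesothelial marker, was among the 10 leading genes of another cluster against non-biliary cells. That cluster was held mostly by the BDL libraries (15 and 13 sham cells against 308 and 860 BDL cells), and Msln was seen in 42.3% of its cells. Its place in a BDL cluster is opposite to the summed mesothelial level, which was lower in BDL libraries. Without the first cluster 9 genes were called, and without both 11 were, all 8 genes above among them. The part of these markers in the other values was not tested.

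Among the early enzymes, Hmgcs1, the HMG-CoA synthase that forms the precursor of mevalonate, was at 249.8 and 401 CPM (scaled by TMM) in sham libraries and at 194 and 194 CPM in BDL libraries. Both BDL libraries lay below both sham libraries, but the sham libraries differed from each other by more than the nearer of them did from the BDL libraries. The log2 fold change was -0.74 (SE 0.21, edgeR's adjusted p = 0.0426). It was -0.34 without sham replicate 2 (adjusted p = 0.206) and -1.04 without sham replicate 1 (adjusted p = 0.017). In sham replicate 1 and BDL replicate 1, the libraries whose names agree throughout, it was -0.33.

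Idi1, the isomerase that makes the activated isoprene unit used for chain building, fell in each fit run. Its level was 25.4 and 27.4 CPM in sham libraries and 10.7 and 11.3 CPM in BDL libraries. The groups were far apart compared with the spread within each. The log2 fold change was -1.26 (SE 0.15, edgeR's adjusted p = 0.00226). With each of the 4 libraries left out in turn it stayed between -1.31 and -1.18, with adjusted p-values up to 0.0235, and Idi1 was the only member called in all 4 of these fits besides the full one.

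Sqle, the squalene epoxidase that begins the sterol-specific steps, was at 101 and 103 CPM in sham libraries and at 63.5 and 65.4 CPM in BDL libraries. Libraries of a group nearly coincided. The log2 fold change was -0.66 (SE 0.11, edgeR's adjusted p = 0.00642), and it was -0.67 without sham replicate 1 (adjusted p = 0.0616) and -0.62 without sham replicate 2 (adjusted p = 0.0657). The size was thus held while the call was lost with 1 sham library fewer.

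Tm7sf2, a sterol reductase of the later steps, was at 6.49 and 7.97 CPM in sham libraries and at 2.62 and 3.16 CPM in BDL libraries. This was the largest fall among the called members, with a log2 fold change of -1.30 (SE 0.26, edgeR's adjusted p = 0.0138). It rests on 269 UMIs in all 4 libraries, and with sham replicate 1 or 2 left out its adjusted p was 0.0618 or 0.102. Ebp, the sterol isomerase of the late steps, was at 18.2 and 17.7 CPM against 12.3 and 11.1 CPM. The sham libraries were close and both above the BDL libraries. Its log2 fold change was -0.62 (SE 0.16, edgeR's adjusted p = 0.0303), with adjusted p-values of 0.159, 0.143 and 0.0736 without sham replicate 1, sham replicate 2 and BDL replicate 2, 0.145 in DESeq2, 0.0981 when genes of low counts were kept and 0.0975 in sublibraries 1 to 4.

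**Figure D1:**
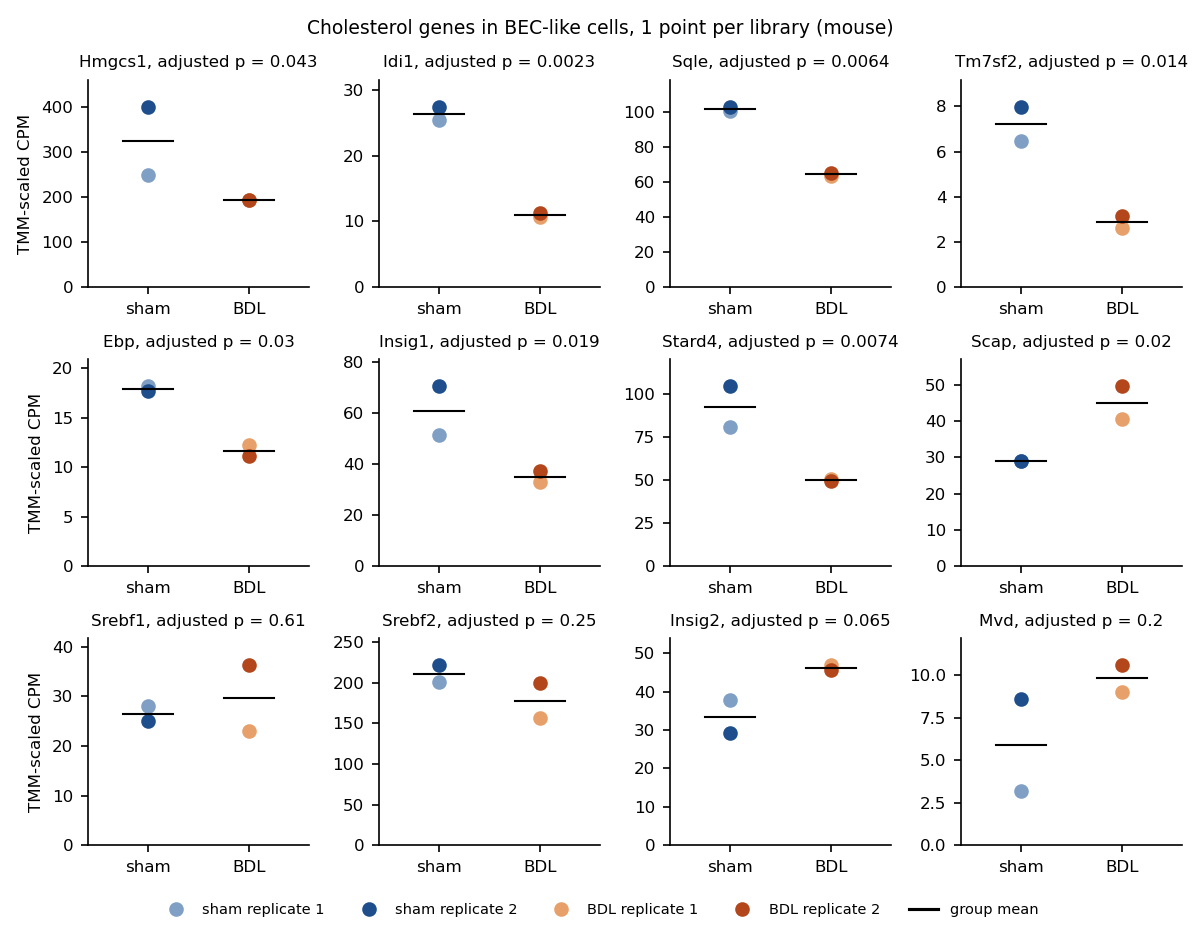
TMM-scaled CPM (y axes, from 0) of 12 genes in BEC-like cells, with 1 point per library, sham on the left and BDL on the right, and a line at each group mean. Idi1 and Sqle have tight groups far apart, whereas for Hmgcs1 sham replicate 2 (401 CPM) stands well above sham replicate 1 (249.8 CPM). Mvd was added after its values were seen.

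The other 13 enzymes did not pass the test, and over all 30 genes 17 had an unadjusted p under 0.05. Of the 18 enzymes, 12 had both BDL libraries below both sham libraries, where 35.1% of all genes tested did, and 1 had both above, where 33.7% did. The 7 enzymes that lay below without a call were Acat2, Mvk, Pmvk, Fdft1, Lss, Sc5d and Dhcr7. Acat2, whose product condenses acetyl-CoA for the first step, was at 13.6 and 23.7 CPM against 11.1 and 12.4 CPM (log2 fold change -0.66, edgeR adjusted p = 0.111). The kinase genes Mvk and Pmvk, which phosphorylate mevalonate in turn, had log2 fold changes of -0.79 and -0.71 (edgeR adjusted p = 0.103 and 0.0722). Lss, the cyclase that forms lanosterol, was at 22.0 and 48.3 CPM against 14.9 and 21.6 CPM, so sham replicate 1 was close to the higher BDL library. Sc5d and Dhcr7, a desaturase and a reductase of the last steps, had log2 fold changes of -0.44 and -0.82 (edgeR adjusted p = 0.0756 and 0.0717). In Acat2, Mvk, Pmvk, Lss and Dhcr7 alike, sham replicate 2 stood more than 1.5-fold above sham replicate 1. The 1 enzyme that lay above was Mvd, the decarboxylase that ends the mevalonate steps, at 3.19 and 8.60 CPM against 9.04 and 10.6 CPM. Its sham libraries differed more than 2-fold, and its log2 fold change was 0.77 (SE 0.41, edgeR's adjusted p = 0.203), or 1.64 without sham replicate 2 (adjusted p = 0.0276) and 0.20 without sham replicate 1 (adjusted p = 0.659). Mvd is singled out after its values were seen, as the 1 enzyme that stood above. The groups overlapped for Fdps, Cyp51, Msmo1, Nsdhl and Hsd17b7. Cyp51, the sterol demethylase, was at 158 and 200.3 CPM against 212 and 183 CPM, so its level did not follow that of Hmgcs1, Idi1 and Sqle. The log2 fold changes of the 13 ran from -0.93 (Lss, SE 0.36, edgeR's adjusted p = 0.101) to that of Mvd.

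Summed over the 18 enzymes, the level in BEC-like cells was 934 and 1307 CPM in sham libraries and 850.1 and 866 CPM in BDL libraries. The means were 1120.4 ± 264 CPM and 858 ± 11.2 CPM (SD, n = 2 per group), a ratio of 0.766. The BDL libraries nearly coincided and lay below both sham libraries, and the sham libraries differed from each other by more than the groups' means did. When genes of low counts were kept for the scaling, BDL replicate 2 (921 CPM) lay above sham replicate 1 (901 CPM), and the difference was -172 CPM. Without sham replicate 2 it was -63.2 CPM, and without sham replicate 1 it was -435 CPM, against -262 CPM with all libraries. The sum leans on genes with many counts. In CPM of each library's own total it was 991 and 1249 in sham and 844 and 860 in BDL libraries. Of this, Hmgcs1 made up 265 and 383 CPM against 193 and 193 CPM, and Cyp51 168 and 191 CPM against 210 and 181 CPM.

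The share of BEC-like cells with at least 1 UMI of any synthesis enzyme was compared after each cell was thinned to 1000 UMIs, since deeper cells show more genes. It was 56.8% and 65.1% in sham libraries (exact Clopper-Pearson 95% intervals 54.9 to 58.8 and 63.2 to 67.0) and 53.8% and 51.9% in BDL libraries (51.6 to 56.0 and 50.3 to 53.5). These intervals cover counting error only. Both BDL libraries lay below both sham libraries, and the group means differed by -8.13 percentage points (p = 0.33 in a two-sided exact permutation test, the smallest that 2 against 2 libraries can give). Thinning left out 77 and 105 sham cells and no BDL cell. With cells thinned to 2000 UMIs the groups overlapped, at 74.8% and 83.6% in sham against 74.3% and 75.2% in BDL, and the means differed by -4.44 points (p = 0.67 in the same exact test). Without thinning the order turned, to 85.1% and 88.4% in sham against 95.4% and 96.0% in BDL, the deeper libraries. Every nucleated cell can make cholesterol, so no class here serves as a zero for this share.

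Of the 5 genes of the SREBP system, 1 rose, 1 fell and 3 did not pass. Scap, the escort of SREBP, rose from 29.1 and 28.9 CPM in sham libraries to 40.5 and 49.7 CPM in BDL libraries, with a log2 fold change of 0.64 (SE 0.14, edgeR's adjusted p = 0.0204). The sham libraries coincided and both BDL libraries lay above them, while with sham replicate 1 or 2 left out the adjusted p was 0.132 or 0.117. Insig1, which retains Scap in the endoplasmic reticulum and is itself a target of SREBP, fell from 51.2 and 70.4 CPM to 32.8 and 37.1 CPM. Its log2 fold change was -0.79 (SE 0.17, edgeR's adjusted p = 0.0186), or -0.53 without sham replicate 2 (adjusted p = 0.141) and -0.61 between sham replicate 1 and BDL replicate 1 alone.

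Insig2, the paralogue with the same retaining role, was at 37.7 and 29.2 CPM in sham libraries and at 46.9 and 45.5 CPM in BDL libraries. Both BDL libraries were higher, opposite to Insig1, but the difference missed the threshold (log2 fold change 0.46, SE 0.15, edgeR's adjusted p = 0.065). It passed without either BDL library (adjusted p = 0.0255 and 0.035), when genes of low counts were kept (adjusted p = 0.00412), in sublibraries 1 to 4 (adjusted p = 0.0446) and without the 2 clusters led by Alb or Msln (adjusted p = 0.0419). The transcription factors themselves did not pass. Srebf2, which encodes the SREBP form that mainly drives cholesterol synthesis, was at 201 and 222 CPM against 156 and 200.2 CPM (log2 fold change -0.24, SE 0.15, edgeR's adjusted p = 0.255), and the nearest libraries of the groups nearly coincided. It passed without BDL replicate 2 (log2 fold change -0.43, adjusted p = 0.0423) and not in the other fits with 1 library fewer. Srebf1, whose products mainly drive fatty acid synthesis, was at 28.1 and 25.04 CPM against 23.0 and 36.3 CPM, and the groups overlapped (log2 fold change 0.17, SE 0.22, edgeR's adjusted p = 0.612). Without BDL replicate 1 its log2 fold change was 0.47 (adjusted p = 0.0265), and without BDL replicate 2 it was -0.20 (adjusted p = 0.492).

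Of the carriers inside the cell, Stard4, a soluble protein that shuttles cholesterol between membranes and is a known SREBP target, fell from 81.0 and 105 CPM to 51.0 and 49.8 CPM. The BDL libraries coincided and lay well below both sham libraries, with a log2 fold change of -0.88 (SE 0.15, edgeR's adjusted p = 0.00737). It was -0.67 without sham replicate 2, where the adjusted p was 0.0575, and -0.64 between sham replicate 1 and BDL replicate 1 alone. Npc1 and Npc2, which release cholesterol from lysosomes after lipoprotein uptake, were not called. Npc1 was at 120 and 133 CPM against 110.1 and 149 CPM, an overlap, and Npc2 at 48.1 and 54.4 CPM against 47.7 and 41.0 CPM.

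None of the 4 LXR and efflux genes was called (0 of 4 by edgeR, 2 at an unadjusted p under 0.05). Nr1h2, which encodes the LXR found in most tissues, was at 24.97 and 27.3 CPM against 33.1 and 33.3 CPM (log2 fold change 0.35, edgeR adjusted p = 0.0891), and Nr1h3, the LXR gene prominent in liver and macrophages, at 3.29 and 4.73 CPM against 2.35 and 2.24 CPM (log2 fold change -0.80, edgeR adjusted p = 0.114). The pump gene Abca1 showed no group pattern, at 20.8 and 13.1 CPM against 11.4 and 25.6 CPM. Of its 810 UMIs in BDL replicate 2, 445 lay in the 547 cells of 1 subcluster led by Ptprt and Anxa1. Abca1 was at 91.6 CPM there in BDL replicate 2 and at 24.0 CPM (28 UMIs in 146 cells) in BDL replicate 1. The pump gene Abcg1 had 103 UMIs in all 4 libraries and overlapping groups. By DESeq2, 8 of the 30 genes were called in BEC-like cells, 7 of them also by edgeR, with Lss in place of Ebp. DESeq2 called 21.7% of all genes tested.

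**Figure D2:**
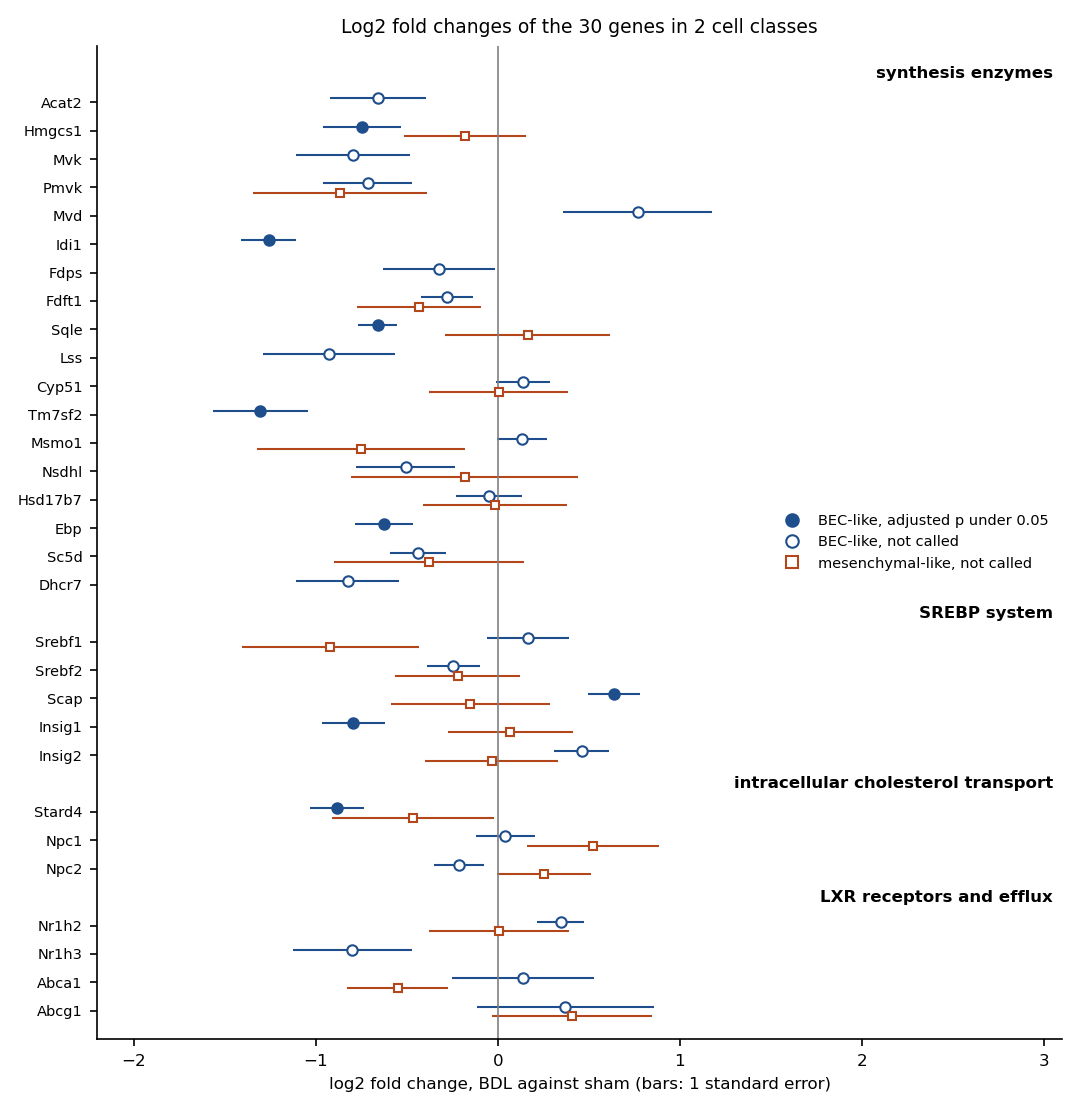
Log2 fold change of BDL against sham (x axis, bars of 1 standard error) for all 30 genes by role, as circles for BEC-like cells, filled where the adjusted p was under 0.05, and as squares for mesenchymal-like cells where a gene passed the filter on low counts. The 8 filled circles comprise 7 below 0 and Scap above it, and no square is filled.

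BEC-like cells were then clustered again with the 30 genes left out, which gave 9 subclusters. Most were held by 1 treatment label, so that the label and the subcluster cannot be told apart there. In cells of the sham libraries the summed enzyme level, in CPM of each subcluster's own UMIs, was 1178 and 1434 in subcluster 2 (led by Reln and Kcnma1), 849 and 1114 in subcluster 4 (Ddit4l, Txnip, Fos) and 814 and 1114 in subcluster 5 (Sgcd, Tmeff2). Sham replicate 2 was the higher in each of the 4 subclusters with 100 or more cells of both sham libraries. In the BDL libraries it was 855 and 845 CPM in subcluster 1 (Nos2, Ccl20), 855 and 905 CPM in subcluster 3 (Ccn2, Ankrd1), 745 and 705 CPM in subcluster 7 (Adamts6, Foxj1) and 881 and 898 CPM in subcluster 8 (Anxa1, Dmbt1). Subcluster 9, led by histone and division genes such as H1f5, had the highest level in BDL libraries, 1020.3 and 1009 CPM.

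Subcluster 6, led by Aldh3b2, was the only one with more than 100 cells from every library (452 and 278 sham cells, 235 and 120 BDL cells). There the enzymes summed to 935 and 1335 CPM in sham libraries and to 784 and 772 CPM in BDL libraries, so the BDL libraries were lower within it too. Idi1 was at 31.9 and 42.7 CPM against 13.6 and 14.2 CPM, and Stard4 at 90.8 and 86.5 CPM against 46.6 and 45.8 CPM. Sqle was at 120.4 and 81.9 CPM against 58.5 and 55.5 CPM. For Hmgcs1 the groups overlapped, at 218 and 431 CPM against 222 and 176 CPM. These values have no test, and each library's subcluster is a sample of its own cells only. In the finer clustering of all cells, a cluster with Aldh3b2 and Tll2 among its leading genes held 467 and 304 sham cells against 12 and 2 BDL cells. Another with Tll2 among its leading genes against non-biliary cells held 8 and 0 sham cells against 239 and 112 BDL cells. Whether subcluster 6 joins these 2 clusters, each held by 1 treatment label, was not tested.

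Among BEC-like cells, 500 of 1963 and 974 of 3799 in the BDL libraries had a UMI of the division genes Mki67 or Top2a. In the sham libraries 149 of 2610 and 112 of 2587 had one. Cells were not thinned for this count, and BDL cells were deeper (medians 7132 and 7878 UMIs against 3302 and 2765). The part of depth was not tested. In the BDL libraries the summed enzyme level of cells with such a UMI was 914 and 874 CPM, against 817 and 854 CPM in the other cells. In sham libraries it was 922 and 1091 CPM, against 997 and 1259.7 CPM. With these cells left out of all libraries 9 of the 30 genes were called, the same 8 and Dhcr7, against 26.8% of all genes tested.

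**Figure D3:**
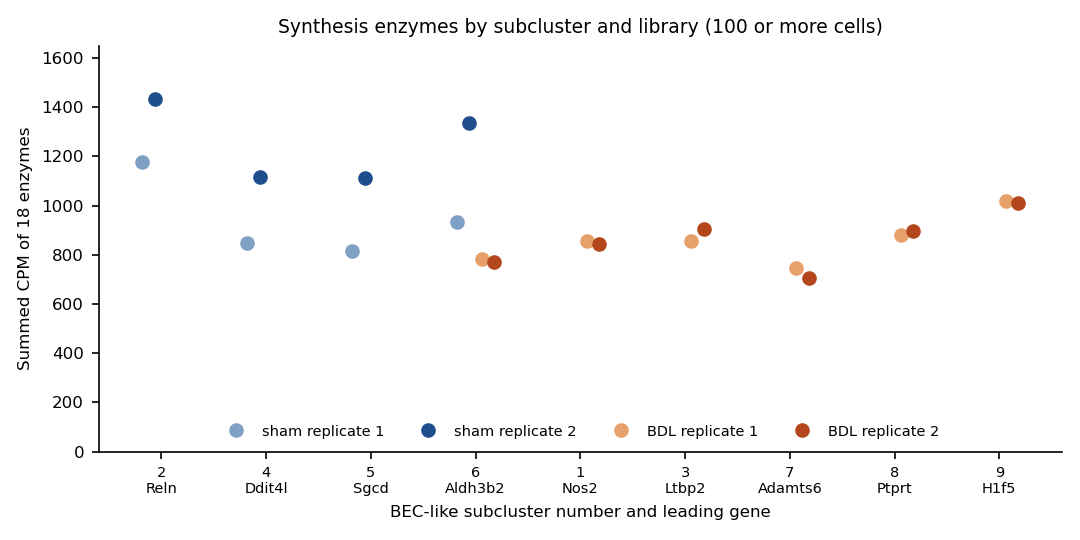
Summed CPM of the 18 synthesis enzymes (y axis, from 0) in each BEC-like subcluster with 100 or more cells of a library, by library, with the subcluster's number and leading gene on the x axis. Sham replicate 2 is the highest point wherever sham cells are present, and subcluster 6 holds all 4 libraries, with the BDL libraries (784 and 772 CPM) below the sham libraries (935 and 1335 CPM).

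In mesenchymal-like cells none of the genes was called. These cells held 513495 to 1296350 UMIs per library, and 20 of the 30 genes passed the filter on low counts, among them 9 of the 18 enzymes. By edgeR 0 of 20 were called, 0 had an unadjusted p under 0.05, and DESeq2 called 0, whereas 6.16% of the 8750 genes tested were called (2.45% higher and 3.71% lower). The median log2 fold change of the 20 was -0.17. Of the 20, 4 had both BDL libraries below both sham libraries, where 25.7% of all genes did, and 1 had both above, where 26.7% did. In simulated data with 200 genes changed, this fit recovered 10.5% of genes changed by 1 on the log2 scale and 80.0% of those changed by 2. A change of 1, larger than most of those called in BEC-like cells, was thus mostly missed in that setting.

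The levels of the enzymes called in BEC-like cells were as follows in mesenchymal-like cells. Hmgcs1 was at 62.1 and 126 CPM in sham libraries and at 87.0 and 83.2 CPM in BDL libraries (log2 fold change -0.18, SE 0.33, edgeR's adjusted p = 0.811), with the BDL libraries between the sham libraries. Sqle was at 10.8 and 17.7 CPM against 13.8 and 18.4 CPM (log2 fold change 0.16, SE 0.46, edgeR's adjusted p = 0.877). Idi1 had 28 UMIs in all and was not tested, at 12.1 and 11.3 CPM against 1.98 and 3.50 CPM (9 and 14 UMIs against 1 and 4). Tm7sf2 had 1 and 4 UMIs in sham libraries and 0 in BDL libraries, too few for a comparison. Ebp, also not tested, was at 13.5 and 11.3 CPM against 9.88 and 10.5 CPM.

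In the SREBP system, Srebf1 was at 24.3 and 27.4 CPM against 5.93 and 18.4 CPM in mesenchymal-like cells, with both BDL libraries lower (log2 fold change -0.92, SE 0.49, edgeR's adjusted p = 0.308). Srebf2 was at 59.4 and 94.97 CPM against 47.4 and 83.2 CPM (log2 fold change -0.22, SE 0.34, edgeR's adjusted p = 0.772). Scap was at 21.6 and 21.7 CPM against 11.9 and 24.5 CPM (log2 fold change -0.15, edgeR adjusted p = 0.881). The groups overlapped for Srebf2 and Scap. Insig1 was at 29.7 and 27.4 CPM against 27.7 and 31.5 CPM (log2 fold change 0.07, edgeR adjusted p = 0.936), and Insig2 at 22.9 and 32.2 CPM against 25.7 and 28.9 CPM (log2 fold change -0.03, edgeR adjusted p = 0.970). Stard4 was at 16.2 and 31.4 CPM against 15.8 and 19.3 CPM, also an overlap (log2 fold change -0.47, edgeR adjusted p = 0.604). Abca1, well detected here, was at 175.5 and 142.5 CPM against 134 and 87.5 CPM, with both BDL libraries lower and no call (log2 fold change -0.55, SE 0.28, edgeR's adjusted p = 0.285).

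The summed enzyme level in mesenchymal-like cells was 275 and 441 CPM in sham libraries and 304 and 299 CPM in BDL libraries, with the BDL libraries between the sham libraries. The difference of the means was -56.3 CPM, and 26.2 CPM without sham replicate 2. The makeup of the class also differed between the groups. A cluster led by Colec10 and Hhip held 108 and 320 sham cells against 29 and 22 BDL cells, and one led by Gdnf, Cthrc1 and Fbn2 held 18 and 15 against 41 and 107. In the first the enzymes summed to 251 and 377 CPM against 305 and 306 CPM, and in the second to 383 and 535 CPM against 296 and 308 CPM. The 11 biliary markers summed to 1346 and 2212 CPM in mesenchymal-like cells of the sham libraries and to 1116 and 1931 CPM in those of the BDL libraries. The 10 endothelial markers summed to 382 and 333 CPM against 684 and 765 CPM, with Cdh5 and Stab2 at 0 in sham replicate 1, Kdr and Clec4g in BDL replicate 1, and Cdh5 and Clec4g in BDL replicate 2. Their part in the values above was not tested.

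The share of mesenchymal-like cells with an enzyme UMI after thinning to 1000 UMIs was 22.5% and 24.9% in sham libraries (exact 95% intervals 16.7 to 29.3 and 20.6 to 29.6) and 18.3% and 20.5% in BDL libraries (10.1 to 29.3 and 13.9 to 28.3). All 4 intervals overlapped, and the group means differed by -4.31 percentage points (exact permutation p = 0.33). At 2000 UMIs the groups overlapped, at 37.3% and 43.8% in sham against 43.5% and 36.2% in BDL, and the difference was -0.73 points (exact p = 0.67).

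Whether the effect of ligation differed between the classes was tested by the class by treatment term over the 8 sums, with the library as a block. None of the 30 genes was called (0 of 30 by edgeR, 3 at an unadjusted p under 0.05), against 5.14% of 15320 genes. The 3 were Srebf1 (BEC-like minus mesenchymal-like log2 fold change 1.18, SE 0.44, edgeR's adjusted p = 0.164), Insig1 (-0.87, SE 0.37, adjusted p = 0.219) and Hmgcs1 (-0.62, SE 0.28, adjusted p = 0.266). The fall of Hmgcs1, Insig1 and the other called genes in BEC-like cells is therefore not shown to differ from what mesenchymal-like cells did. In simulated data this term was recovered for 71.0% of genes that differed by 2 on the log2 scale and for 2.50% of those that differed by 1. The simulation held 8424 genes that passed the filter on low counts in both classes, with 200 changed. It therefore does not cover the members below that filter in mesenchymal-like cells.

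Set side by side within a library, many of the cholesterol genes stood at different levels in the classes, whatever the treatment label. Of the 18 enzymes 15 were higher in BEC-like than in mesenchymal-like cells of all 4 libraries, and 0 were lower in all 4, on the scale of CPM of each class's own total. The share of all genes with such an order was not taken, so the counts do not set the enzymes apart from other genes. Fdps, the synthase of farnesyl units, was at 31.7 to 59.9 CPM in BEC-like cells and at 1.38 to 12.3 CPM in mesenchymal-like cells. Srebf2 was at 155 to 213 CPM against 46.7 to 91.0 CPM, and Npc1 at 109 to 148 CPM against 27.7 to 56.9 CPM. The order was opposite in all 4 libraries for Npc2, Nr1h3, Abca1 and Abcg1. Abca1 was at 90.4 to 180 CPM in mesenchymal-like cells and at 11.3 to 25.4 CPM in BEC-like cells, and Abcg1 at 14.7 to 27.3 CPM against 0.952 to 2.01 CPM. These levels are a description with no test, since the classes were made by clustering. Of the 30 genes Abca1 alone was among the 2000 variable genes used, and 99.96% of cells kept their class when the 30 were left out.

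Neighbouring pathways were followed with 6 gene lists, whose calls in BEC-like cells are to be read against the 27.1% of all genes that were called. Of 14 genes of fatty acid synthesis, the pathway driven mainly by Srebf1 products, 5 fell, 1 rose and 8 did not pass, with a median log2 fold change of -0.57. Gpam, which starts triglyceride assembly, fell from 35.3 and 30.3 CPM to 16.5 and 15.9 CPM (log2 fold change -1.02, edgeR adjusted p = 0.00437). Acly, which makes cytosolic acetyl-CoA for fatty acids and sterols alike, fell from 159 and 166 CPM to 110.04 and 106 CPM (log2 fold change -0.59, edgeR adjusted p = 0.0092). Me1, a source of NADPH, rose from 225 and 226 CPM to 329.8 and 344 CPM (log2 fold change 0.58, edgeR adjusted p = 0.0102). In all 3 genes the libraries of a group lay close together and the groups apart.

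In the isoprenoid branch, which takes farnesyl units away from sterols, 3 of 11 genes rose, 0 fell and 8 did not pass, with a median of 0.27. Pggt1b, a subunit of the enzyme that attaches geranylgeranyl groups to proteins, rose from 52.9 and 55.2 CPM to 78.9 and 82.2 CPM (log2 fold change 0.57, edgeR adjusted p = 0.0116). Ggps1, which makes geranylgeranyl diphosphate, rose from 32.5 and 30.6 CPM to 44.5 and 44.8 CPM, and Fntb, a farnesyltransferase subunit, from 11.2 and 9.47 CPM to 14.8 and 18.6 CPM (edgeR adjusted p = 0.0246 and 0.0407). Among 11 genes of SREBP processing and sterol-regulated degradation, 1 rose, 1 fell and 9 did not pass. Mbtps2, the protease that makes the final cut releasing SREBP, rose from 18.3 and 18.2 CPM to 28.6 and 29.5 CPM (log2 fold change 0.67, edgeR adjusted p = 0.0134), and Erlin1 fell from 30.4 and 29.2 CPM to 22.3 and 19.8 CPM (log2 fold change -0.50, edgeR adjusted p = 0.0379).

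Of 8 lipoprotein receptors and their partners, 5 fell, 0 rose and 3 did not pass, with a median of -0.63. Cd36, a scavenger receptor for fatty acids and modified lipoproteins, fell from 7.36 and 9.47 CPM to 1.66 and 1.07 CPM (log2 fold change -2.66, edgeR adjusted p = 0.0026). Scarb1, the receptor for high-density lipoprotein, fell from 44.4 and 42.0 CPM to 23.0 and 21.8 CPM (log2 fold change -0.95, edgeR adjusted p = 0.00323), and Lrpap1, a chaperone of receptors of the LRP family, from 41.5 and 46.1 CPM to 23.9 and 26.6 CPM (log2 fold change -0.79, edgeR adjusted p = 0.00751). Hepatocyte markers were also lower in BDL libraries, as given above, and their part in these values was not tested.

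Of 15 tested genes of sterol storage, oxidation and transfer, 5 rose, 2 fell and 8 did not pass. Stard3, a carrier of late endosomal cholesterol, rose from 7.36 and 8.10 CPM to 14.3 and 16.4 CPM (log2 fold change 0.996, edgeR adjusted p = 0.0102), and the oxysterol-binding family was split, with Osbpl1a at 30.2 and 26.3 CPM against 18.01 and 14.8 CPM and Osbpl5 at 14.9 and 14.5 CPM against 21.4 and 33.1 CPM (edgeR adjusted p = 0.0155 and 0.0295). Of 6 tested other LXR targets, 2 fell, 1 rose and 3 did not pass. Mylip, whose product marks lipoprotein receptors for degradation, fell from 9.68 and 9.22 CPM to 3.24 and 2.69 CPM (log2 fold change -1.69, edgeR adjusted p = 0.00394), Smpdl3a from 25.9 and 27.0 CPM to 13.8 and 14.2 CPM (edgeR adjusted p = 0.00551), while Arl4c rose from 12.7 and 18.4 CPM to 31.2 and 38.5 CPM (edgeR adjusted p = 0.0096). In mesenchymal-like cells, 1 gene of the 6 lists was called. It was Pltp, the phospholipid transfer protein gene, at 99.9 and 93.4 CPM in sham libraries and at 39.5 and 46.4 CPM in BDL libraries (log2 fold change -1.15, SE 0.27, edgeR's adjusted p = 0.0369). Pltp was not called with any 1 library left out (adjusted p = 0.0643 to 0.229).

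The calls in the lists depended on the number of libraries. Of the list genes called in BEC-like cells, 18 were followed, those named above and the receptor gene Lrp1. They are not all that were called, since up to 3 per list were named by smallest adjusted p. All 18 kept their direction with any 1 library left out. As they were picked from these same libraries, this is no independent check. Without sham replicate 2, 5 remained called (Gpam, Cd36, Scarb1, Mylip and Arl4c), and without sham replicate 1, 4 did (Cd36, Scarb1, Mylip and Smpdl3a). Without BDL replicate 2, 15 remained called, the others being Fntb, Erlin1 and Osbpl5 (edgeR adjusted p = 0.107, 0.108 and 0.0519). With sham replicate 2 left out, none of the isoprenoid, SREBP processing or storage genes was called (0 of 11, 0 of 11 and 0 of 15 by edgeR, with 2, 3 and 5 at an unadjusted p under 0.05), and the same held with sham replicate 1 left out (3, 1 and 6 at an unadjusted p under 0.05). DESeq2 was not run with a library left out.

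**Figure D4:**
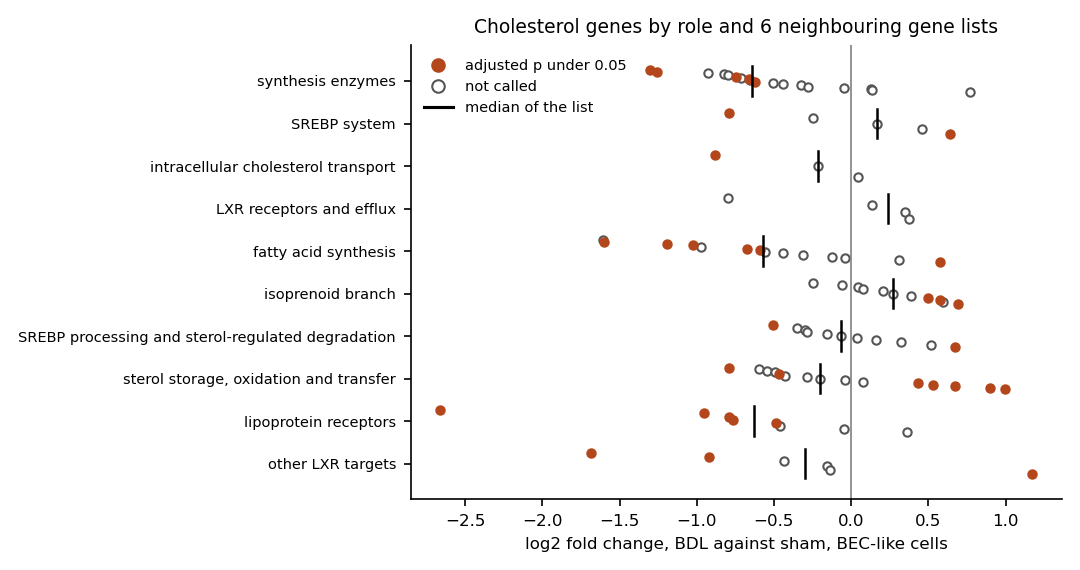
Log2 fold changes of BDL against sham in BEC-like cells (x axis) for the 30 genes by role (upper 4 rows) and for 6 neighbouring gene lists (lower 6 rows), 1 point per gene, filled where the adjusted p was under 0.05, with a line at each median. The medians of the synthesis enzymes (-0.64), fatty acid synthesis (-0.57) and lipoprotein receptors (-0.63) lie below 0, and that of the isoprenoid branch (0.27) above it.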

How the data were processed

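Single liver cells of 4 samples (2 sham, 2 BDL) were fixed and barcoded by split pooling with the Evercode kit of Parse Biosciences, primed by both oligo(dT) and random hexamers, per the labels' protocols. The deposited matrices hold counts of UMIs per cell and gene, with no normalization. The reference is mm39 per the file headers and GRCm39 per the submitters' processing notes. Software and cell calling are not given in the sources used here. Groups come from the sample labels, and replicates were numbered in accession order. Replicates differed by more than sampling noise (chi-square per degree of freedom 25.8 and 37.8 in the sham and BDL sums of BEC-like cells over genes with at least 20 UMIs).

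Of 12211 cells, 7 with under 500 UMIs and 11 with over 20% mitochondrial UMIs were left out. Scrublet called 12 doublets (0.0984%), a share under 0.5% that was taken as a failed call; these were removed, leaving 12181 cells. The 2000 most variable genes and 30 components gave 19 Leiden clusters at resolution 1 (scanpy 1.11.5, leidenalg 0.10.2). A cluster was named for a class when at least 3 and at least 50% of its markers were detected in 5% of cells and more than 2-fold higher, a rule set after the data were seen; BEC-like clusters were compared with non-biliary cells.

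Counts summed per library and class were tested with edgeR 4.0.16 (TMM, default filter, two-sided quasi-likelihood F test, Benjamini-Hochberg, threshold 0.05), and DESeq2 1.42.0 was an alternative. CPM are TMM-scaled for the 2 classes, and per own total for subclusters, marker sums and comparisons between classes. Counts were not divided by gene length, so levels of different genes are not compared. On simulated data the BEC-like fit recovered 46.5% of 200 genes changed by 1 and 95.5% of those changed by 2 on the log2 scale. Shares were compared by exact permutation.

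The members and lists were chosen with earlier results of these data known. Called members, Srebf1, Srebf2, Scap, Insig1 and Insig2 are given in every library, and of each list up to 3 called genes with the smallest adjusted p. Promoter windows come from RefSeq and were used for their letters only, as their build differs from that of the files.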

Additional observations from a re-analysis of the deposited data

Results flagged for a closer look

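Among the 30 cholesterol genes and the 6 neighbouring lists, 5 of 97 genes (5.15%, against 5.14% of all 15320 genes tested) had a response to ligation that differed between BEC-like and mesenchymal-like cells by the class by treatment term (edgeR quasi-likelihood test, adjusted over all genes). All 5 belong to the neighbouring lists, none to the 30 cholesterol genes. Each difference below is the BEC-like minus the mesenchymal-like log2 fold change.

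Arl4c differed by 3.17 (SE 0.55, adjusted p = 0.00209). It was at 12.7 and 18.4 CPM in sham against 31.2 and 38.5 CPM in BDL BEC-like cells, and at 45.9 and 22.5 CPM against 5.93 and 9.63 CPM in mesenchymal-like cells. Lrp8, a receptor for apolipoprotein ligands, differed by -2.35 (SE 0.56, adjusted p = 0.0177), with overlapping groups in BEC-like cells and 4.05 and 11.3 CPM against 27.7 and 29.8 CPM in mesenchymal-like cells. Soat1, which esterifies cholesterol for storage, differed by -1.52 (SE 0.39, adjusted p = 0.0305), at 37.8 and 31.4 CPM against 63.3 and 75.3 CPM in mesenchymal-like cells. Mylip differed by -1.15 (SE 0.32, adjusted p = 0.0474), and Lrp1, a large endocytic receptor, by -0.97 (SE 0.27, adjusted p = 0.0474). Of these 5 genes none was called within mesenchymal-like cells alone. Without sham replicate 2 the term was called for Arl4c (adjusted p = 9.17e-10) but not for Soat1, Lrp1, Lrp8 or Mylip (adjusted p = 0.222, 0.228, 0.0676 and 0.196). Without BDL replicate 2 it was called for Arl4c and Lrp8 (adjusted p = 0.00549 and 0.0259) but not for Soat1, Lrp1 or Mylip (adjusted p = 0.166, 0.162 and 0.217), and without BDL replicate 1 for Arl4c alone of the 5 (adjusted p = 0.0175).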

How the results depend on the processing

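The count of 8 called genes in BEC-like cells became 13 with no filter on low counts (4 higher, 9 lower) and 2 to 16 with 1 library left out. With no filter on low counts, 19.1% of the 31165 genes tested were called, a set that takes in the genes of low counts. Under the other settings the count of members was 8 to 11, where 21.7% to 27.1% of all genes tested were called. These settings were DESeq2, other scalings, thinning, other clusterings and removal of high doublet scores or of cycling cells. They also took in removal of the clusters led by Alb or Msln (chosen after seeing the data) and either set of 4 sublibraries. In mesenchymal-like cells the count was 0 under every setting run, but without BDL replicate 2 edgeR called 0 of all 8842 genes there (1161 at an unadjusted p under 0.05). For the class by treatment term it was 0 to 1 with 1 library left out, the 1 being Abca1 without BDL replicate 1, and 0 otherwise. The summed enzyme difference ranged from -435 to -63.2 CPM in BEC-like cells and from -135 to 26.2 CPM in mesenchymal-like cells with 1 library left out. Without thinning, the share of cells with an enzyme UMI was higher in BDL libraries, by 8.92 points in BEC-like and 19.7 points in mesenchymal-like cells. The fits with 1 library left out assume that the lone sample varies like the other group. No paired analysis was possible because replicate numbers were assigned here in accession order and pair no libraries. With 2 libraries per group, complete separation cannot reach p under 0.33 in a permutation test, and mesenchymal-like sums of 71 to 419 cells left 10 of the 30 genes below the filter on low counts.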
